A study of Mus musculus with 38 samples.

Results

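The 19 Wnt ligands, 10 Frizzled receptors, 4 Dkk antagonists and 4 Sfrp antagonists printed on a mouse whole-genome array were followed in MMTV-PyMT mammary tumors. The 37 genes were taken by name, as all genes of the array whose symbol starts with Wnt, Fzd, Dkk or Sfrp followed by a number. They were read by 49 probes and stand among 28786 genes measured in the series. The names alone set this choice and no measured value entered it, but earlier results of these data were known when it was made.

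Focal hyperplasias of 3-week-old MMTV-PyMT;actin-GFP females, in which the mouse mammary tumor virus promoter drives polyoma middle T in the mammary epithelium and other organs, were grown in cleared fat pads of FVB/n hosts. GFP-positive cells were sorted from every sample, so all 38 arrays share both transgenes and the sort. In the progression experiment the groups were adenoma (5-week outgrowths, n = 5), carcinoma (18-week outgrowths, n = 6), disseminated cells (lungs of mice with 18-week outgrowths, 3 to 6 mice pooled a sample, n = 6) and metastases (lung metastases that grew after removal of the primary tumor, n = 5). In the chemotherapy experiment the groups were untreated (labelled Control, n = 6), residual (labelled Regressed, 10 days after the first dose of TAC, n = 6) and relapsed (labelled Resistant, 10 days after dose 4, n = 4). TAC combines docetaxel, doxorubicin and cyclophosphamide and was given every 21 days from 8 weeks after transplantation. Metastases were collected weeks after an 18-week primary tumor was removed, when hosts first showed respiratory distress. The study's methods give no harvest time for untreated tumors. Where time since transplantation differed between groups, it cannot be told apart from group. Each array set a sample against the same universal mouse reference RNA, so a level here is the log2 ratio of sample to reference after normalization, and 0 means as much as in the reference. RNA of the progression samples was amplified in 2 rounds and that of the chemotherapy samples was not, so the experiments were never compared with each other.

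Wnt proteins are secreted lipid-modified ligands that bind Frizzled receptors on the same or a neighbouring cell. With the co-receptors Lrp5 and Lrp6 they stabilize beta-catenin, which drives transcription with Tcf/Lef factors, and through other branches they act on cell polarity and calcium. Sfrp proteins resemble the ligand-binding part of a Frizzled and bind Wnts outside the cell, while Dkk proteins bind the co-receptors. In the mammary gland the pathway is known for ductal branching and stem cell maintenance, and the Wnt genes were first found as integration sites of the mouse mammary tumor virus.

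Of the 37 genes, 25 had 1 or more of the 28 promoters listed by RefSeq for GRCm38.p6, each running from 250 bases before to 50 bases after a transcription start. The letters CTTTG, the core of the Tcf/Lef motif, were searched on both strands (CAAAG on the other strand). They occurred in 13 of the 28 promoters (46.4%), against 53.9% of all 32841 listed mouse promoters. The longer CTTTGAT, which contains the core, occurred in 2 of the 28 (7.14%), against 3.73% of all. The promoters of the family were richer in G and C than the rest, with a median of 68.7% against 52.7%, and held a median of 26.5 CpG dinucleotides against 7. The promoters of Wnt5b, the ligand with the largest change in these tumors, and of Fzd9, the receptor with the largest, are shown 5′ to 3′ on the minus strand, with the core in capitals. Wnt5b has starts at chr6:119544298-119544597 (first), chr6:119467162-119467461 (second) and chr6:119449337-119449636 (last), and the Fzd9 promoter lies at chr5:135250998-135251297.
Wnt5b first: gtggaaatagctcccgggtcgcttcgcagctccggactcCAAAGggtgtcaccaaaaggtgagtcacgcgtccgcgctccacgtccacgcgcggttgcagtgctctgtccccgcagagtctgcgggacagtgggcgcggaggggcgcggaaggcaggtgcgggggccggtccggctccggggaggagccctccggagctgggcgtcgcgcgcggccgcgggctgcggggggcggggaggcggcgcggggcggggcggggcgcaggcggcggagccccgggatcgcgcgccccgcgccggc
Wnt5b second: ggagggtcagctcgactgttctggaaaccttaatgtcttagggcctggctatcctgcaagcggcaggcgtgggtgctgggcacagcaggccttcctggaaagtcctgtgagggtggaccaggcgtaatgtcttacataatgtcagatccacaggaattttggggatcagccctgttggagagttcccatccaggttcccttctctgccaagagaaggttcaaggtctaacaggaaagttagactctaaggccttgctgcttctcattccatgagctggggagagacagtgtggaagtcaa
Wnt5b last: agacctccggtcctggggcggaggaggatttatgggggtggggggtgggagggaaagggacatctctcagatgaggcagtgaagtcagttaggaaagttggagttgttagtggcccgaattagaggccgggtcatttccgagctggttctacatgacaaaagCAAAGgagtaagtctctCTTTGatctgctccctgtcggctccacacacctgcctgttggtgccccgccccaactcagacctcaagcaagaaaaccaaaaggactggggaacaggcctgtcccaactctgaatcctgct
Fzd9: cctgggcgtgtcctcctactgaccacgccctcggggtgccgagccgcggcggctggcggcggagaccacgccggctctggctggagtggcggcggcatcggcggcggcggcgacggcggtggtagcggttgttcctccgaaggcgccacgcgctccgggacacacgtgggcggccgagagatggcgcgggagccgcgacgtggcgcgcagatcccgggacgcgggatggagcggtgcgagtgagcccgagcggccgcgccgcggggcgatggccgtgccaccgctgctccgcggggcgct
The first Wnt5b promoter is 78% G and C with 47 CpG dinucleotides and 1 core match, whereas the second is 53% G and C with 4 CpG dinucleotides and no match. The last holds 2 core matches, 1 of them within CTTTGAT. The Fzd9 promoter is 78% G and C with 53 CpG dinucleotides and holds no match. A match is a run of letters and is not evidence of a binding site.

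Several libraries stood apart from their group. The median correlation of carcinoma 6 with the other carcinomas was 0.760 across genes, where the others had 0.939 to 0.959. Disseminated 4 and 6 and metastases 4 were also lower, at 0.776, 0.710 and 0.776. Markers of macrophages (7 genes) averaged -0.73 to 0.24 in adenomas and -0.69 to 0.47 in carcinomas 1 to 5, but 4.6 in carcinoma 6, 3.39 to 4.94 in disseminated cells and 0.58 to 5.11 in metastases. The 4 alveolar macrophage markers measured averaged 4.7 to 6.93 in disseminated cells and 2.69 to 5.93 in metastases, against at most 1.62 in the primary tumors. Luminal mammary markers (9 genes) averaged 1.86 to 2.6 in adenomas, 1.35 to 2.67 in carcinomas, -0.77 to 2.49 in disseminated cells and -0.47 to 3.43 in metastases. Lung epithelial markers (7 genes) averaged 0.58 to 1.31 in the primary tumors and 1.7 to 3.64 in the lung samples. Of the 7, 2 were well above background on every adenoma array and 5 on every carcinoma array. In disseminated cells and in metastases 6 were so on every array. Nkx2-1 was not well above background on any adenoma, carcinoma or metastases array, nor was Sftpa1 on any adenoma array. Neutrophil markers (4 genes) averaged 1.96 to 2.99 in adenomas, 2.29 to 4.74 in carcinomas, 3.82 to 6.99 in disseminated cells and 1.34 to 4.77 in metastases. Endothelial markers (5 genes) averaged 0.09 to 0.68, 0.47 to 1.42, 0.82 to 2.64 and 0.74 to 1.04 in this order, and fibroblast markers (7 genes) -3.39 to -1.58, -4.65 to -2.61, -4.6 to -1.21 and -5.01 to -3. T and NK cell markers (6 genes) averaged 0.58 to 1.14, -0.03 to 0.4, 0.16 to 1.62 and -0.05 to 1.05. Of these 6, 2 were called lower in carcinomas against adenomas, where their median change was -0.124. Basal and myoepithelial markers (7 genes) averaged 1.34 to 1.93, 1.19 to 1.93, 0.15 to 1.66 and 0.61 to 1.85. The median change of the fibroblast markers was -1.112 in carcinomas against adenomas (2 called lower) and -1.365 in metastases against adenomas (3 called lower). Both macrophage lists moved with each comparison between lung and primary tumor below. The luminal list moved with those of disseminated cells (median changes -1.444 against adenomas and -1.518 against carcinomas), but its median change in metastases was 0.043 against adenomas and 0.21 against carcinomas. The part of these lists in the results was not tested. In sorted bulk samples, fewer cells of a type and less RNA per cell cannot be told apart. In the chemotherapy experiment luminal markers averaged 3.57 to 4.17 on all arrays. Macrophage markers averaged 1.63 to 2.38 in untreated 1 to 3 and -0.59 to -0.29 in untreated 4 to 6, -0.87 to 1.44 in residual and -1.09 to 0.76 in relapsed tumors. None of their 7 genes was called by limma, with a median change of -0.744 in residual and -1.126 in relapsed tumors against untreated, and their part in the chemotherapy results was not tested.

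**Figure D1:**
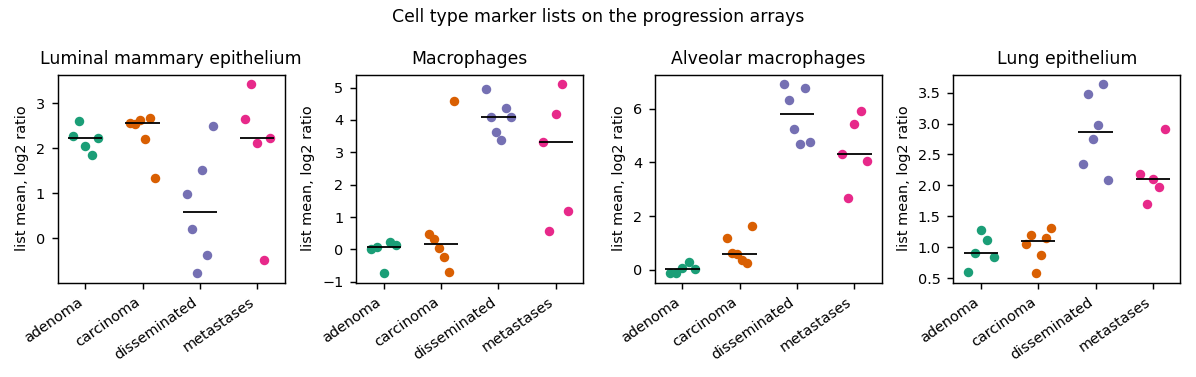
Mean log2 ratio of each cell type marker list (vertical axis) on each progression array (points, by group on the horizontal axis). Macrophage markers are high in all disseminated samples, in carcinoma 6 and in 3 of 5 metastases, and luminal markers are below 0 in disseminated 3 and 5 and in metastases 4.

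In the progression experiment 18 of the 37 genes were well above background on all 22 arrays, 18 on some and 1, Dkk4, on none. All arrays of a group detected 18 of the 37 genes in adenomas (48.6%, against 48.9% of all genes), 27 in carcinomas (73%, against 67.7%), 22 in disseminated cells (59.5%, against 62.5%) and 26 in metastases (70.3%, against 68.5%). Between 48.4% and 75.5% of spots passed on an adenoma array, so the number of adenoma genes rests on unequal arrays.

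**Figure D2:**
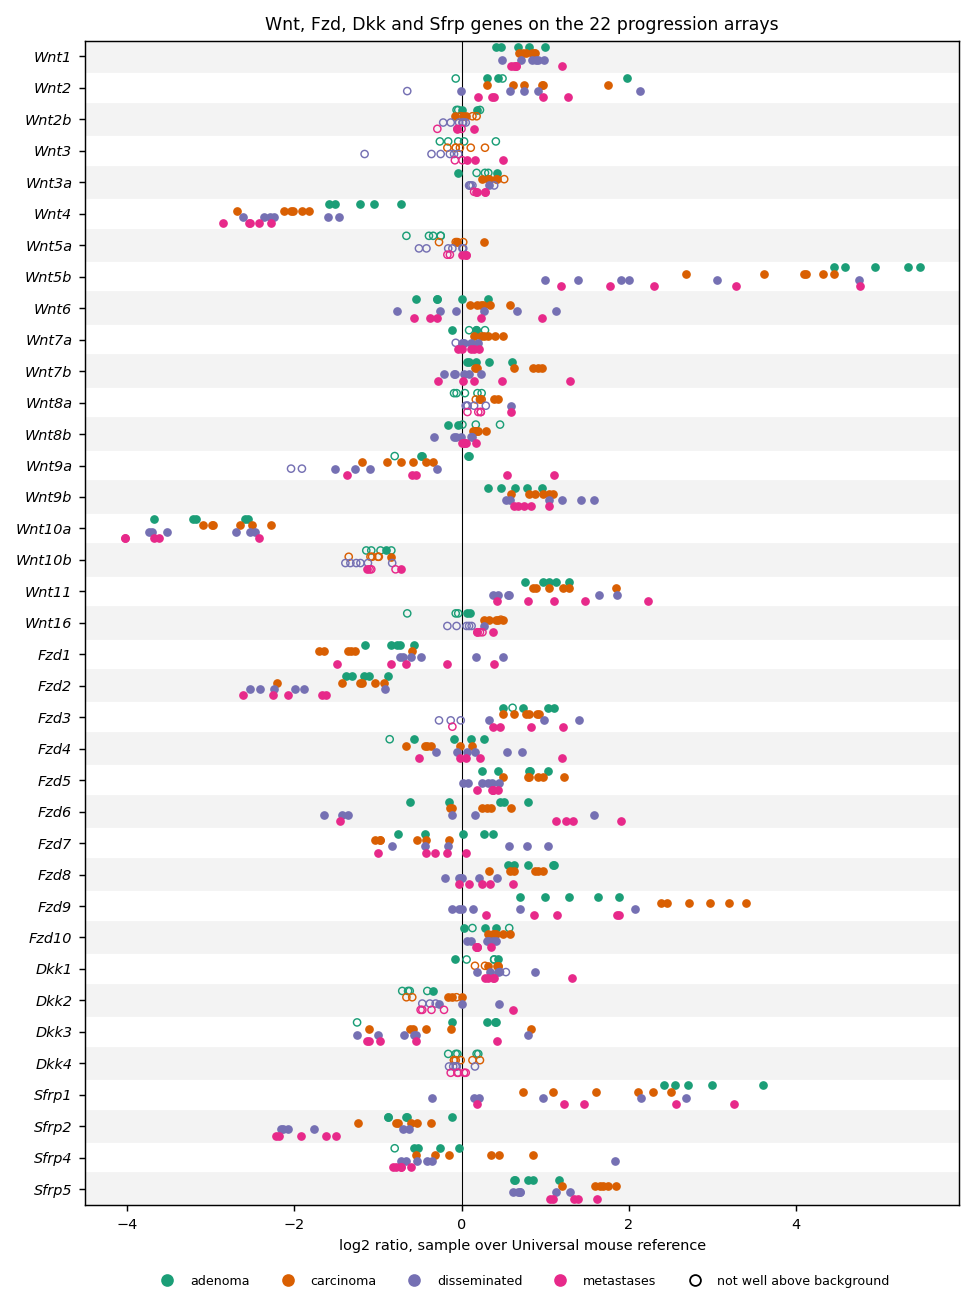
Log2 ratio to reference RNA (horizontal axis) of each of the 37 genes (vertical axis) on each of the 22 progression arrays (points, coloured by group), with open points where the probe was not well above background. Carcinomas stand above the other groups for Fzd9, adenomas and carcinomas lie to the right of most lung samples for Wnt5b, and all points of Dkk4 are open.

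Among the ligands, Wnt5b was on average highest in adenomas and fell in both lung groups against adenomas. Wnt5b is a ligand of the branch that does not need beta-catenin. Its probe (chr6 119458136 to 119458195, mm7) read 4.45, 5.34, 5.48, 4.95 and 4.59 on the 5 adenoma arrays. Carcinomas spanned 2.68 to 4.46 with a median of 4.11, disseminated cells 1.0 to 4.75 with a median of 1.95, and metastases read 3.28, 4.77, 2.3, 1.19 and 1.78. Most lung samples lay below all adenomas, but disseminated 4 and metastases 2 lay within the adenoma range. Against adenomas (4.96 ± 0.45, SD, n = 5), Wnt5b fell by 2.61 on the log2 scale in disseminated cells (SE 0.613, 2.35 ± 1.37, n = 6, limma adjusted p = 0.00617), a 6.11-fold change. In metastases it fell by 2.30 (SE 0.64, 2.66 ± 1.41, n = 5, limma adjusted p = 0.011), 4.91-fold. Carcinomas differed from adenomas by -1.08, which was not called. The differences from carcinoma were -1.535 in disseminated cells (limma adjusted p = 0.0579) and -1.22 in metastases (limma adjusted p = 0.169), and neither was called. A second Wnt5b probe gave -1.58 for disseminated cells against adenomas but -0.30 for metastases against adenomas. It gave -0.65 for carcinomas against adenomas and -0.93 for disseminated cells against carcinomas. For metastases against carcinomas it ran the opposite way, at 0.35. With no scaling between arrays the disseminated difference was -1.54 (limma adjusted p = 0.162) and the call was lost, and the metastases call was lost under 5 alternatives (limma adjusted p = 0.0574 to 0.264). On the 3 slides that held both groups, the differences between disseminated cells and adenomas were -2.18, -2.41 and -3.51. On the 3 slides shared by metastases and carcinomas they were -1.99, -2 and 1.38, the last from 1 metastases array.

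Wnt4, a ligand of side branching in the mammary gland, stepped down after the adenoma stage. It read -1.51, -1.21, -0.73, -1.05 and -1.59 in adenomas and -2.54, -2.42, -2.53, -2.85 and -2.28 in metastases, and these groups did not overlap. Wnt4 fell by 1.30 in metastases against adenomas (SE 0.213, -2.52 ± 0.21 against -1.22 ± 0.35, n = 5 each, limma adjusted p = 0.00021), 2.47-fold. Carcinomas (-2.69 to -1.83, median -2.03) were also all below the adenomas, and differed from them by -0.88 (limma adjusted p = 0.0096), under the 2-fold change a call needs. Disseminated cells (-2.61 to -1.47, median -2.27) differed by -0.88 as well (limma adjusted p = 0.00597) but overlapped the adenomas. Centring each array on its median brought the metastases difference to -0.87 (limma adjusted p = 0.000619), just under 2-fold.

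Wnt9a, a further ligand, was lower in disseminated cells than in adenomas and metastases, and both calls were weak. The disseminated arrays spanned -2.04 to -0.29 with a median of -1.4, and 2 of the 6 were not well above background. Adenomas read 0.08, 0.09, -0.8, -0.49 and -0.47, and metastases -0.55, 1.1, -0.59, -1.37 and 0.54, so all groups overlapped. Wnt9a fell by 1.04 in disseminated cells against adenomas (SE 0.362, -1.35 ± 0.63, n = 6, against -0.32 ± 0.39, n = 5, limma adjusted p = 0.0481). It rose by 1.18 in metastases against disseminated cells (SE 0.362, -0.17 ± 0.99, n = 5, limma adjusted p = 0.0359). The first call was lost in 9 of 11 runs without a single array (limma adjusted p = 0.0513 to 0.104), and the second without disseminated 2, 3, 4 or 5 or metastases 2 or 5 (0.85 to 1.23, limma adjusted p = 0.0522 to 0.118). The other Wnt9a probe gave -0.10 and -0.09 for the same comparisons. On the 3 slides shared by adenomas and disseminated cells the differences were -0.58, -0.70 and -1.59, and with slide as a block the first call was lost (-0.99, limma adjusted p = 0.0603).

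The other 16 Wnt ligands were not called in any progression comparison. Wnt16 was 0.52 higher in carcinomas than in adenomas without overlap (limma adjusted p = 0.00469), at levels of 0.27 to 0.5 and -0.65 to 0.1, and was well above background on 5 of 6 carcinoma but 2 of 5 adenoma arrays. The difference was 1.13 with a normexp offset of 0 (limma adjusted p = 0.0109) and 1.85 from the scanner's processed signals (limma adjusted p = 0.00532), and both were called. Wnt6 read -0.54, -0.29, 0, 0.32 and -0.29 in adenomas and -0.29, -0.57, -0.38, 0.23 and 0.96 in metastases, and spanned 0.1 to 0.58 in carcinomas and -0.77 to 1.13 in disseminated cells, so the groups overlapped. Wnt10a lay between -4.03 and -2.28 on all progression arrays. Wnt11, which acts through the polarity branch, had medians of 1.05, 1.13, 0.56 and 1.11 from adenoma to metastases. Wnt3 was not well above background on any disseminated array and was on 3 of 5 metastases arrays. Its mean signal over the metastases arrays was 1.22-fold the lowest signal that passed on the disseminated arrays. That mean includes arrays that did not pass, so it is no lower limit. The log2 ratios differed by 0.469 (limma adjusted p = 0.0719).

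Among the receptors, Fzd9 changed most, rising from adenoma to carcinoma and falling in both lung groups against carcinoma. Its probe (chr5 134220225 to 134220284, mm7) read 1, 1.28, 1.88, 1.63 and 0.7 in adenomas. Carcinomas spanned 2.39 to 3.4 with a median of 2.85, disseminated cells -0.11 to 2.07 with a median of 0.07, and metastases read 1.14, 1.86, 0.87, 0.29 and 1.88. Every carcinoma lay above every sample of the other 3 groups. Fzd9 rose by 1.56 in carcinomas against adenomas (SE 0.364, 2.86 ± 0.41, n = 6, against 1.30 ± 0.47, n = 5, limma adjusted p = 0.0101), 2.95-fold. It fell by 2.395 in disseminated cells against carcinomas (SE 0.347, 0.46 ± 0.84, n = 6, limma adjusted p = 0.000121), 5.26-fold, and by 1.65 in metastases against carcinomas (SE 0.364, 1.21 ± 0.68, n = 5, limma adjusted p = 0.00364), 3.14-fold. Without carcinoma 6 the changes were 1.65, -2.51 and -1.75 and stayed called. On the 3 slides shared by carcinomas and metastases the differences were -2.37, -1.69 and -0.56.

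Fzd1 was higher in disseminated cells than in carcinomas, with a change at the edge of 2-fold. Carcinomas spanned -1.71 to -0.59 with a median of -1.34 and disseminated cells -0.74 to 0.49 with a median of -0.55. Fzd1 rose by 1.005 (SE 0.272, -0.31 ± 0.52 against -1.32 ± 0.40, n = 6 each, limma adjusted p = 0.0102). The change dropped under 2-fold without carcinoma 3, 5 or 6 or disseminated 3 or 4 (0.842 to 0.996, limma adjusted p = 0.0181 to 0.029).

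The other 8 receptors were not called. Fzd8 differed by -0.77 between disseminated cells and adenomas, without overlap (limma adjusted p = 0.00173), and by -0.65 between disseminated cells and carcinomas (limma adjusted p = 0.00202). Fzd5 differed by -0.52 between metastases and carcinomas (limma adjusted p = 0.00906), with 0.19 to 0.44 and 0.49 to 1.23. The second probes of Fzd8 and Fzd5, well above background on at most 1 array of a group, gave 0.02, -0.04 and -0.03 for these comparisons. Fzd2 differed by -0.88 between metastases and adenomas (limma adjusted p = 0.0207). Its other probe ran the opposite way, at 0.53, and was well above background on 5 of 5 metastases but 2 of 5 adenoma arrays. Fzd3 read 1.03, 0.49, 0.74, 0.61 and 1.11 in adenomas and 0.38, 1.21, 0.46, -0.11 and 0.83 in metastases, and spanned 0.49 to 0.93 in carcinomas and -0.27 to 1.4 in disseminated cells. It differed by -0.24 between metastases and adenomas (limma adjusted p = 0.549) and by -0.20 between metastases and carcinomas (limma adjusted p = 0.661), and its other probe ran the opposite way, at 0.42 and 0.37. Fzd6 spread widely within metastases, from -1.45 to 1.91, with metastases 4 at the low end.

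Of the antagonists, the called falls were Sfrp1 in disseminated cells against adenomas and Sfrp2 in metastases against both primary groups. Sfrp1 (chr8 22232957 to 22233016, mm7) read 2.55, 2.42, 3.61, 2.71 and 3 in adenomas and spanned -0.35 to 2.68 with a median of 0.6 in disseminated cells, where disseminated 6 reached the adenoma range. It fell by 1.89 in disseminated cells against adenomas (SE 0.553, 0.97 ± 1.21, n = 6, against 2.86 ± 0.48, n = 5, limma adjusted p = 0.0207), 3.7-fold. Without adenoma 3, disseminated 3 or disseminated 5 the call was lost (-1.74 to -1.62, limma adjusted p = 0.0515 to 0.0576), and with no scaling between arrays the difference was -1.10 (limma adjusted p = 0.27). A second Sfrp1 probe, well above background on 1 array of each group, gave 0.08. Within the 3 shared slides the difference was -1.18, -2.05 and -2.81. Carcinomas spanned 0.73 to 2.5 and metastases read 3.26, 2.56, 1.23, 0.18 and 1.46, and no other Sfrp1 difference was called. Carcinomas and metastases also lay more than 2-fold below adenomas on average, by -1.14 and -1.12. Disseminated cells differed from carcinomas by -0.75.

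Sfrp2 (chr3 83878918 to 83878977, mm7) separated metastases from primary tumors. It read -0.67, -0.11, -0.88, -0.88 and -0.65 in adenomas and -1.92, -1.62, -2.22, -2.19 and -1.5 in metastases, while carcinomas spanned -1.24 to -0.36 with a median of -0.68. No metastasis overlapped either primary group. Sfrp2 fell by 1.25 in metastases against adenomas (SE 0.283, -1.89 ± 0.33 against -0.64 ± 0.31, n = 5 each, limma adjusted p = 0.00272), 2.38-fold, and by 1.18 against carcinomas (SE 0.271, -0.71 ± 0.30, n = 6, limma adjusted p = 0.00476), 2.26-fold. On the 3 slides shared with carcinomas the differences were -1.61, -1.09 and -0.70. Disseminated cells spanned -2.16 to -0.63, with disseminated 2 and 4 among the primary tumors. Their median of -1.92 was the same as that of metastases, so the low level was not particular to metastases. Their mean was -1.58, against -0.64 in adenomas and -0.71 in carcinomas, and these differences were under 2-fold. The adjusted p alone passed for 2 of the 4 Sfrp genes in each of these 2 comparisons. Sfrp2 was not called between metastases and disseminated cells.

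Sfrp5 was highest in carcinomas (1.2 to 1.85, median 1.68) and lower in adenomas (0.63 to 1.17, median 0.8), without overlap. The differences were 0.81 for carcinomas against adenomas (limma adjusted p = 0.00192), -0.77 for disseminated cells against carcinomas (limma adjusted p = 0.000689) and 0.45 for metastases against disseminated cells (limma adjusted p = 0.0494), all under 2-fold. Sfrp4 was not called. None of the 4 Dkk genes was called by limma in any of the 6 comparisons. Dkk3 spanned -1.25 to 0.41 in adenomas, -1.11 to 0.83 in carcinomas, -1.25 to 0.79 in disseminated cells and -1.13 to 0.42 in metastases.

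**Figure D3:**
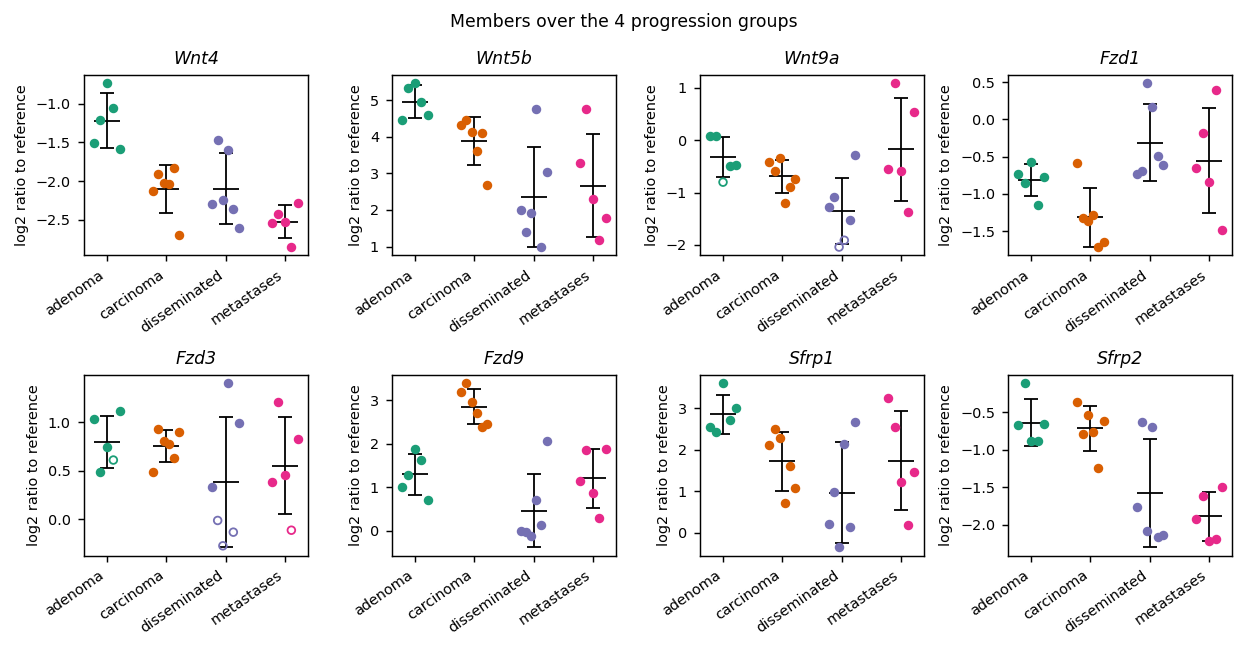
Log2 ratio to reference RNA (vertical axis) of the genes called in the progression experiment and of Fzd3, on each array (points) by group, with the group mean and SD and open points where not well above background. Fzd9 in carcinomas lies above all other groups, Sfrp2 and Wnt4 in metastases lie below all adenomas, and Wnt5b in disseminated cells runs from 1.0 to 4.75.

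Between 1 and 3 of the 37 genes were called in each progression comparison, and the difference from the share of all genes was not tested. A call needed a limma adjusted p under 0.05 and a change of at least 2-fold. In carcinomas against adenomas 1 of 37 was called (3.3% of all genes), and in disseminated cells against adenomas 3 (10.5%), Wnt5b, Sfrp1 and Wnt9a. Metastases against adenomas gave 3 (14.6%), Wnt5b, Wnt4 and Sfrp2. Disseminated cells against carcinomas gave 2 (11.6%), Fzd9 and Fzd1, metastases against carcinomas 2 (10.1%), Fzd9 and Sfrp2, and metastases against disseminated cells 1 (7.12%), Wnt9a. The adjusted p alone passed for 5, 8, 8, 10, 5 and 2 of the 37 in this order, against 11.7%, 20.5%, 28.7%, 26.5%, 22% and 13.1% of all genes. Groups did not overlap for 4, 1, 5, 4, 4 and 0 of the 37, against 10.5%, 9.31%, 21.5%, 7.19%, 13.6% and 4.17%. These comparisons share groups and are not independent of each other. Adenomas and disseminated cells lay on the same slides and scan day, and so did carcinomas and metastases, so for the other 4 comparisons slide, scan day and group cannot be told apart.

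Over the 37 genes, called or not, 8 had a difference above 0 and 29 below 0 in disseminated cells against carcinomas, with a median of -0.245, against -0.066 over all genes, and no test was made of these medians. In metastases against carcinomas 11 were higher with a median of -0.159, against -0.048 over all genes. The median was 0.1 in carcinomas against adenomas (0.065 over all genes), with 22 genes higher, and it turned to -0.007 when arrays were centred on their median. In disseminated cells against adenomas 13 were higher with a median of -0.072 (-0.009 over all genes), in metastases against adenomas 18 with a median of -0.017 (0.015 over all genes), which turned to 0.047 without scaling between arrays, and in metastases against disseminated cells 24 with a median of 0.033 (0.008 over all genes).

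**Figure D4:**
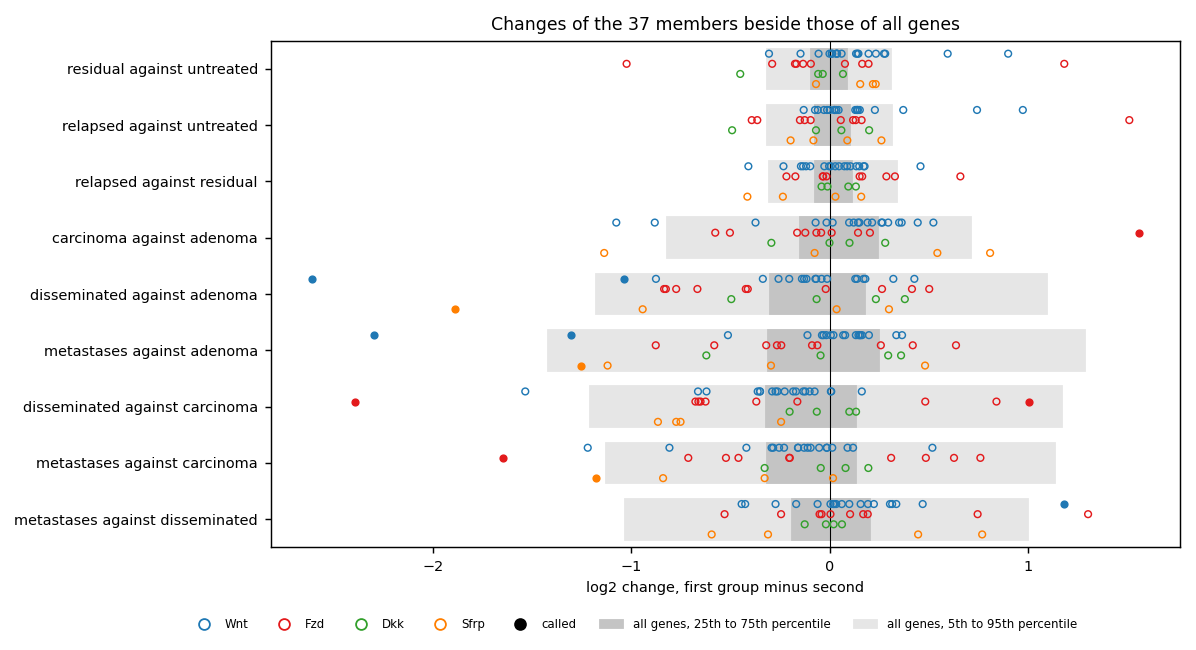
Log2 change (horizontal axis) of each of the 37 genes in the comparisons of both experiments (vertical axis), coloured by family, with called genes filled and grey bars for the spread of all genes. Among the filled points, Fzd9 in carcinomas against adenomas lies furthest to the right and Wnt5b in disseminated cells against adenomas furthest to the left, and no gene is called in the 3 chemotherapy comparisons.

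In the chemotherapy experiment 16 of the 37 genes were well above background on all 16 arrays, 11 on some and 10 on none, among them Dkk1, Dkk2, Dkk4, Wnt3 and Wnt3a. All untreated arrays detected 18 of the 37 genes (48.6%, against 49.6% of all genes), all residual arrays 18 (48.6%, against 48.8%) and all relapsed arrays 16 (43.2%, against 49.7%). Wnt5b ranged from 4.03 to 5.54 before treatment, from 4.4 to 6.08 in residual tumors and from 4.61 to 5.37 at relapse. None of the 37 was called by limma in residual against untreated (0.0938% of all genes), relapsed against untreated (0.0104%) or relapsed against residual (0.212%). At an unadjusted p under 0.05 there were 6, 5 and 3 of the 37, where 9.11%, 7.63% and 7.73% of all genes passed. The unmoderated test that the study's legends name called 0 in each after adjustment.

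Fzd9 was the receptor nearest to a call. It spanned 3.18 to 3.92 in untreated tumors with a median of 3.61, 2.0 to 3.24 in residual tumors with a median of 2.56, and read 2.85, 3.66, 3.8 and 2.64 in relapsed tumors. Only residual 2 reached the untreated range among residual tumors, and the relapsed tumors overlapped both groups. The residual difference was -1.02 (SE 0.243, 95% interval -1.54 to -0.51, 2.58 ± 0.52 against 3.60 ± 0.27, n = 6 each, limma adjusted p = 0.13). With the deposited log2 ratios it was -1.17 (limma adjusted p = 0.0347) and was called, the lowest adjusted p of the alternatives run. The highest, 0.767, came with slide as a block, and on the slide that held both groups the difference was -0.79. That slide held 2 residual arrays and 1 untreated array. Most untreated arrays lay on a slide without other groups, so slide and group are hard to tell apart here.

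Wnt6 and Wnt10a were higher in all residual than in all untreated tumors, the only 2 of the 37 without overlap in that comparison (0.775% of all genes). Wnt6, a ligand (chr1 75024467 to 75024532, mm7), spanned -0.85 to -0.58 in untreated and -0.4 to 0.27 in residual tumors and read 0.05, 0.56, -0.52 and 0.01 in relapsed tumors. The residual difference was 0.595 (limma adjusted p = 0.205) and the relapsed one 0.74 (limma adjusted p = 0.263), and a second probe gave 0.99 and 1.14. With slide as a block the residual difference was 0.11 (limma adjusted p = 0.953). On the slide that held both groups, with only 1 untreated array, it was 0.32. Wnt10a, a ligand of the beta-catenin branch, spanned -3.34 to -2.91 in untreated and -2.89 to -1.25 in residual tumors and read -1.54, -1.95, -3.01 and -2.02 in relapsed tumors. Its differences were 0.90 (limma adjusted p = 0.303) and 0.97 (limma adjusted p = 0.386), and the first was 0.26 with slide as a block (limma adjusted p = 0.936). In relapsed against untreated tumors Wnt6 and Fzd4 did not overlap (1.66% of all genes), where the Fzd4 difference was -0.39, and in relapsed against residual tumors no gene of the family was free of overlap (1.68%).

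Fzd10 had the largest difference in size. It was not well above background on any of the 6 untreated arrays. It was well above background on 5 of 6 residual and on 3 of 4 relapsed arrays. Untreated tumors spanned -0.38 to 0.74 and residual tumors -0.08 to 2.84, and relapsed tumors read 1.47, 3.05, 0.65 and 1.87. Set against the lowest signal that passed on each untreated array, its mean signal was 2.61-fold higher in relapsed and 2.12-fold higher in residual tumors. These means include arrays that did not pass, so they are no lower limits. The log2 ratios gave a limma adjusted p = 0.4 for relapsed and 0.418 for residual tumors. The other Fzd10 probe differed by 0.14 in relapsed tumors, and no call was made. Fzd3 spanned 0.67 to 1.73 in untreated and 0.71 to 1.15 in residual tumors and read 1.13, 1.04, 1.25 and 1.06 in relapsed tumors, all within the untreated range. In relapsed against residual tumors the smallest p-values belonged to Fzd2 (0.29, limma adjusted p = 0.498), Wnt2 (limma adjusted p = 0.509) and Fzd9 (0.66, limma adjusted p = 0.573). Wnt2 was not well above background on any residual array and was on 2 of 4 relapsed arrays. Its mean signal over the relapsed arrays was 1.26-fold the lowest signal that passed on the residual arrays. That mean includes arrays that did not pass, so it is no lower limit.

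None of the Sfrp and Dkk antagonists was called after chemotherapy. Sfrp1 ranged from 3.03 to 4.36 before treatment, from 3.09 to 4.73 in residual tumors and from 2.81 to 3.91 at relapse. Sfrp2 spanned -0.99 to 1.38, -0.94 to 0.88 and -0.63 to -0.01. Dkk3 spanned -0.72 to 0.41, -1.02 to -0.19 and -0.9 to -0.56. Over the family 23, 22 and 20 of 37 genes were higher in the 3 comparisons, with medians of 0.037, 0.045 and 0.028 against -0.004, 0.013 and 0.015 over all genes.

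**Figure D5:**
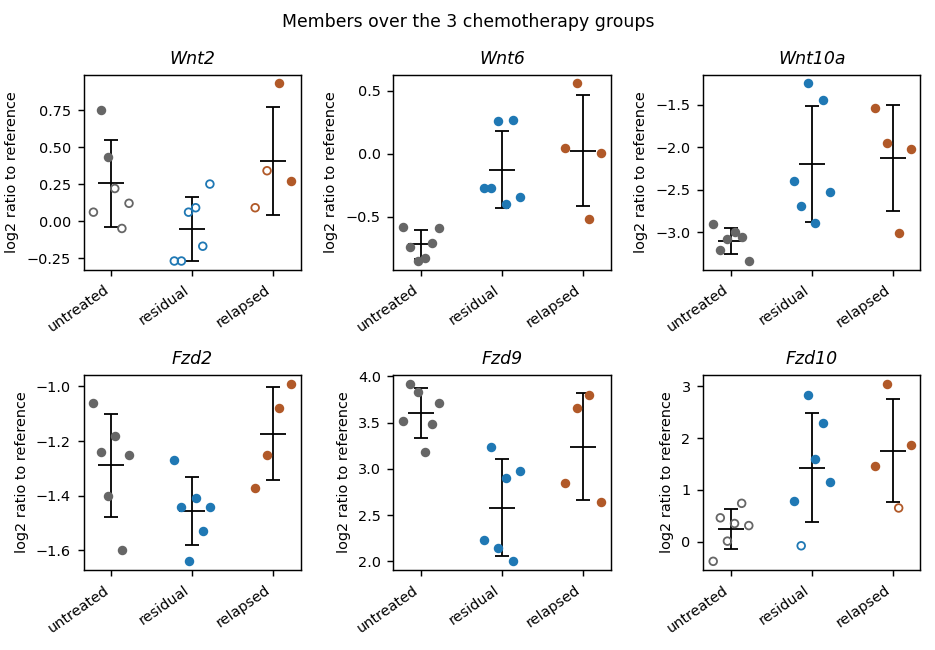
Log2 ratio to reference RNA (vertical axis) of 6 genes with small p-values in the chemotherapy experiment, on each array (points) by group, with the group mean and SD and open points where not well above background. Wnt6 and Wnt10a in residual tumors lie above all untreated tumors, Fzd9 lies lower in 5 of 6 residual tumors, and no difference passed the adjusted threshold.

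Of 71 further genes of the pathway, listed by role, none was called by limma in the chemotherapy comparisons. In the progression comparisons 5 were called in carcinomas against adenomas (3 higher, 2 lower, 7.04% against 3.3% of all genes), 12 in disseminated cells against adenomas (2 higher, 10 lower, 16.9% against 10.5%) and 15 in metastases against adenomas (2 higher, 13 lower, 21.1% against 14.6%). Against carcinomas, 13 were called in disseminated cells (2 higher, 11 lower, 18.3% against 11.6%) and 12 in metastases (4 higher, 8 lower, 16.9% against 10.1%), and 7 were called in metastases against disseminated cells (4 higher, 3 lower, 9.86% against 7.12%). Among secreted antagonists, Sostdc1 rose from 0.96 ± 0.89 in adenomas to 3.43 ± 1.18 in carcinomas, and the agonist Rspo1 fell from 3.76 ± 1.58 to 1.32 ± 0.41. Dkkl1, a Dkk-like secreted protein, stood at 3.76 ± 0.42 in adenomas, 3.28 ± 0.89 in carcinomas, 0.79 ± 0.75 in disseminated cells and 0.73 ± 1.12 in metastases, and fell in both lung groups against both primary groups. Among receptors of R-spondins, Lgr5 rose from 0.21 ± 0.27 in adenomas to 1.65 ± 1.21 in carcinomas and was 0.18 ± 0.15 in metastases. It was well above background on 2 of 5 adenoma arrays, all 6 carcinoma arrays and no metastases array, so its low values lie near the floor. Ctnnb1, which encodes beta-catenin, stood at -0.92 ± 0.31 in adenomas, 0.01 ± 0.75 in carcinomas, 0.57 ± 1.41 in disseminated cells and 2.18 ± 0.59 in metastases, and rose in metastases against each other group. Tcf7l1, a Tcf factor that mainly represses, fell from 1.79 ± 0.17 in adenomas to -0.61 ± 0.94 in disseminated cells and -0.67 ± 1.32 in metastases. Of the common targets, Myc fell from 0.41 ± 0.49 in adenomas to -1.57 ± 0.34 in carcinomas and -2.17 ± 0.68 in metastases, while Cd44 rose from -0.82 ± 0.50 in carcinomas to 1.72 ± 0.78 in disseminated cells. Cd44 is also made by macrophages. Macrophage markers (5 of 7 called higher) and neutrophil markers (4 of 4) rose in the same comparison. Their part in the Cd44 change was not tested.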

How the data were processed

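Sorted tumor cells were profiled on 38 2-colour Agilent whole mouse genome arrays, sample in Cy5 and universal mouse reference in Cy3, with no dye swap. The authors deposited the scanner output of Agilent Feature Extraction 10.7, as spot intensities with 45018 spots an array and probe positions on mm7 (NCBI build 35), and log2 ratios, which served as an alternative. Exon annotation of that build was not used here.

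Mean foreground and median background intensities were corrected with normexp (offset 50), normalized by loess within arrays and by quantiles between the arrays of an experiment in limma 3.58.1 (R 4.3.3, statmod 1.5.0, data.table in version 1.17.8). Control spots and spots flagged as outliers (0.43%, 22 of them spots of the 37 genes) were left out, and repeated spots of 1 probe entered as their mean. Gene names came from the RefSeq accession where it matched (22951 probes) and otherwise from the file (18223), and 36 of the 37 genes matched by accession. The probe with the highest mean signal stood for a gene, and other probes are given where they disagree. Some genes of both experiments are therefore read by different probes.

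All groups of an experiment entered 1 limma fit with moderated variances and Benjamini-Hochberg adjustment over 28786 genes. Calls needed an adjusted p under 0.05 together with a 2-fold or larger change. The number of arrays limits the precision, and the p-values measure the spread between arrays, since the sources used here do not say for each group that samples are separate animals. Named with values are all called genes, Wnt6 and Fzd3, and up to 3 genes of smallest p where fewer were called. Of each list of other pathway genes at most 2 called rises and 2 called falls in a comparison could be named. Axin2, Nkd1 and Porcn in the chemotherapy groups, and the genes given without overlap or as examples, were chosen after their values were seen. The genes, the lists and the tests were chosen with earlier results of these data known. The fit was tested on simulated data. Alternatives changed the background correction, the normalization, the starting values, dim probes, several probes, slide, replicate number, the groups fitted, the test and the arrays kept. The labels do not say whether replicate numbers pair arrays, and the main fit did not pair them. Deviations of arrays with the same number correlated at -0.414 to 0.423 (median 0.0382) in the chemotherapy experiment. In the progression experiment they correlated at -0.413 to 0.324 (median -0.0156). Correlations were above 0.1 in 6 of 14 and 8 of 31 pairs, which cannot decide the question without a reference for unpaired arrays.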

Additional observations from a re-analysis of the deposited data

Results flagged for a closer look

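In 4 of the 66 groups of 4 to 6 arrays tested, 1 array lay further from the rest of its group than Dixon's 95% limit allows, and chance alone flags about 1 group in 20. Fzd9 read 2.07 in disseminated 6, where the other disseminated samples lay between -0.11 and 0.7. Wnt3 read -1.16 in the same sample, against -0.36 to -0.04 in the others, and was not well above background on any of them. Wnt4 read -2.69 in carcinoma 6, against -2.13 to -1.83, and carcinoma 6 also had a macrophage marker mean of 4.6. Wnt16 read -0.65 in adenoma 4, against -0.07 to 0.1. The causes were not tested.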

How the results depend on the processing

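The 3 progression calls of Fzd9 and the 2 of Sfrp2 held under every alternative run, leave-one-out runs included. The number of the 37 genes called in carcinomas against adenomas was 1, and it became 3 at offset 0 in normexp, 2 from processed signals of the scanner software and 3 with only the 2 groups in the fit. In disseminated cells against adenomas 3 became 5 with offset 0, 5 with processed signals, 1 with the deposited log2 ratios and 1 with the mean of a gene's probes, and 1 to 4 without a single array. In metastases against adenomas 3 became 5 with processed signals and 1 with median centring. In disseminated cells against carcinomas 2 became 7 with processed signals and 1 to 4 without a single array. In metastases against disseminated cells 1 became 0 with the mean of probes, with only the 2 groups in the fit and with the equal-variance t-test, and 0 to 3 without a single array. In residual against untreated 0 became 1, Fzd9, with the deposited log2 ratios. The causes were not tested. Fzd3, never called, turned to 0.12 in metastases against adenomas without scaling between arrays (0.12 with Aquantile, which leaves ratios unscaled) and to 0.018 with the mean of its probes, and to 0.083 in metastases against carcinomas with the mean of its probes. With the replicate number as a block the calls were 0 in each chemotherapy comparison and 1, 3, 3, 2, 2 and 1 in the progression comparisons, as without it. Slide as a fixed block could be fitted in 2 of the 6 progression comparisons and gave 3 genes in disseminated cells against adenomas, with Sfrp2 in place of Wnt9a, and 2 in metastases against carcinomas. Of the other results, 192 counts stayed within 1.5 times, and of the values of named genes 655 kept direction and call, 45 lost the call and 3 gained it. Probes not well above background bound a level from above only, which touches 10 of the 37 genes in the chemotherapy experiment and 1 in the progression experiment on all arrays.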

Other observations

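Axin2 and Nkd1, targets of beta-catenin that act back on the pathway, had large differences in the chemotherapy experiment that were not called. They belong to the list of 11 common targets and were picked after their values were seen. Against untreated tumors the median change of that list was 0.352 in residual and 0.469 in relapsed tumors, with 0 genes called in each. Axin2 differed by 1.74 in residual against untreated tumors (limma adjusted p = 0.343) and by 2.49 in relapsed against untreated tumors (limma adjusted p = 0.294), and was well above background on 1 of 6 untreated, 5 of 6 residual and 3 of 4 relapsed arrays. Nkd1 differed by 1.52 (limma adjusted p = 0.282) and 1.99 (limma adjusted p = 0.283). Porcn, which attaches the lipid to Wnt proteins, differed by 0.46 (limma adjusted p = 0.134) and 0.44 (limma adjusted p = 0.321) in the same comparisons. In the progression experiment Porcn was 0.81 higher in carcinomas than in adenomas (limma adjusted p = 0.00255), under 2-fold.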
